A study of Macaca mulatta with 28 samples.

Results

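Dopamine is made, packaged, taken back up and broken down by a small set of proteins, and 8 genes for these steps were followed in rhesus macaques, in tissue of the ventral tegmental area (VTA): TH, DDC, GCH1, QDPR, SLC18A2, SLC6A3, MAOA and MAOB. They were taken by symbol from the 16885 entries with a gene symbol in the deposited count table. The choice was by symbol and not by measured level, but earlier results of these data were known when it was made. All 8 were listed, each as 1 Ensembl transcript, so whatever Salmon, the quantification program, placed on further transcripts of the same gene is missing from these values.

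Tyrosine hydroxylase (TH) turns tyrosine into L-DOPA, the rate-limiting step of dopamine synthesis, and needs tetrahydrobiopterin as a cofactor. Aromatic L-amino acid decarboxylase (DDC) turns L-DOPA into dopamine, which the vesicular monoamine transporter VMAT2 (SLC18A2) loads into vesicles. After release, the dopamine transporter DAT (SLC6A3) returns dopamine to the cell, where monoamine oxidases A and B (MAOA, MAOB) degrade it. Messenger RNA for TH, VMAT2 and DAT together marks dopamine neurons, whose cell bodies lie in the VTA among GABA and glutamate neurons and glia, whereas the monoamine oxidases and the enzymes of the cofactor are found in many cell types.

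RNA from VTA tissue of 28 male macaques had been sequenced, with 1 library per animal. The 17 drinkers could drink alcohol freely for 12 months and then went through 3 abstinence periods of 30 days, separated by 3 months of renewed access, with tissue taken at the end of the last abstinence; the 11 controls were calorically yoked or housing controls. By the label of their drinking category, 1 drinker was Low, 2 were Binge, 5 Heavy and 9 Very Heavy. Cohort 1 held 8 controls, the Low drinker, 4 Heavy and 3 Very Heavy drinkers, while cohort 2 held 3 controls, both Binge drinkers, 1 Heavy and 6 Very Heavy drinkers, so that category and cohort were partly tied. The labels do not say which controls were yoked.

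Estimated counts per animal summed to between 12303976 and 27338712, of which 36.4% to 60.6% fell on the 13 listed transcripts of the mitochondrial genome. Levels are given below as CPM, counts per 1000000 of the library size after TMM scaling, and levels of different genes are not ranked because they were not divided by transcript length. Of 13 dopamine neuron markers that are not among the 8 genes, all were listed, and their summed level ran from 42.1 to 429.7 CPM in controls and from 33.0 to 368.5 CPM in drinkers. The sums of the serotonin neuron markers TPH2, SLC6A4 and FEV were at most 10.4 CPM in any animal.

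The genes fell into a widely varying and a narrowly varying group. For TH, DDC, SLC6A3 and SLC18A2 the highest animal had 131 to 1079 times the level of the lowest, and between 3.94% and 5.19% of well detected transcripts varied more. For SLC18A2 and DDC the range rests on 1 control each, with 2 and 6 counts; from the next lowest animal up it was 162-fold and 111-fold. QDPR and MAOA varied by 1.63 and 2.59 times, GCH1 lay between, and the MAOB transcript was listed at 0 in most animals. No difference of the 8 genes between drinkers and controls, among drinking categories or between cohorts passed the test used, and the wide spread of the first 4 left intervals that reach from a several-fold decrease to an increase.

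TH (ENSMMUT00000005543.4) lies on chromosome 14 from 2224320 to 2232217 on the minus strand; positions are those of the RefSeq gene annotation of the Mmul_10 genome. Over the 28 animals its level ran from 5.58 to 826.0 CPM with a median of 93.1, a 148-fold range, and the SD of its log2 CPM was 2.27. Among the 10802 transcripts that reached 10 counts in 14 or more animals, 5.19% had a larger SD, and the median SD was 0.432. In the 11 controls TH was lowest at 5.81, had a median of 114.7 and was highest at 826.0 CPM. In the 17 drinkers the lowest was 5.58, the median 77.6 and the highest 712.3 CPM. Each arm therefore held animals at both ends of the range, and the arms overlapped almost completely. The 5 Heavy drinkers had 77.6, 712.3, 5.58, 108.7 and 35.3 CPM, so that 1 category spanned nearly the whole range of the study. The 2 Binge drinkers had 22.4 and 227.2 CPM, the Low drinker 152.6 CPM, and the 9 Very Heavy drinkers between 10.3 and 463.9 CPM with a median of 77.1.

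DDC (ENSMMUT00000028095.4), which follows TH in the pathway, is on chromosome 3 from 64711636 to 64817930 on the plus strand. Its level lay between 0.477 and 168.4 CPM, a 353-fold range in which the lowest animal had 6 counts. Controls had a lowest value of 0.477, a median of 17.1 and a highest of 168.4 CPM, and drinkers 2.58, 14.6 and 144.7 CPM. The 5 Heavy drinkers had 13.0, 122.7, 2.58, 30.7 and 6.23 CPM, the Binge drinkers 3.996 and 59.8 CPM and the Low drinker 20.4 CPM, and the Very Heavy drinkers ranged from 2.88 to 144.7 CPM. As for TH, the category medians differed by far less than the animals within a category did.

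**Figure D1:**
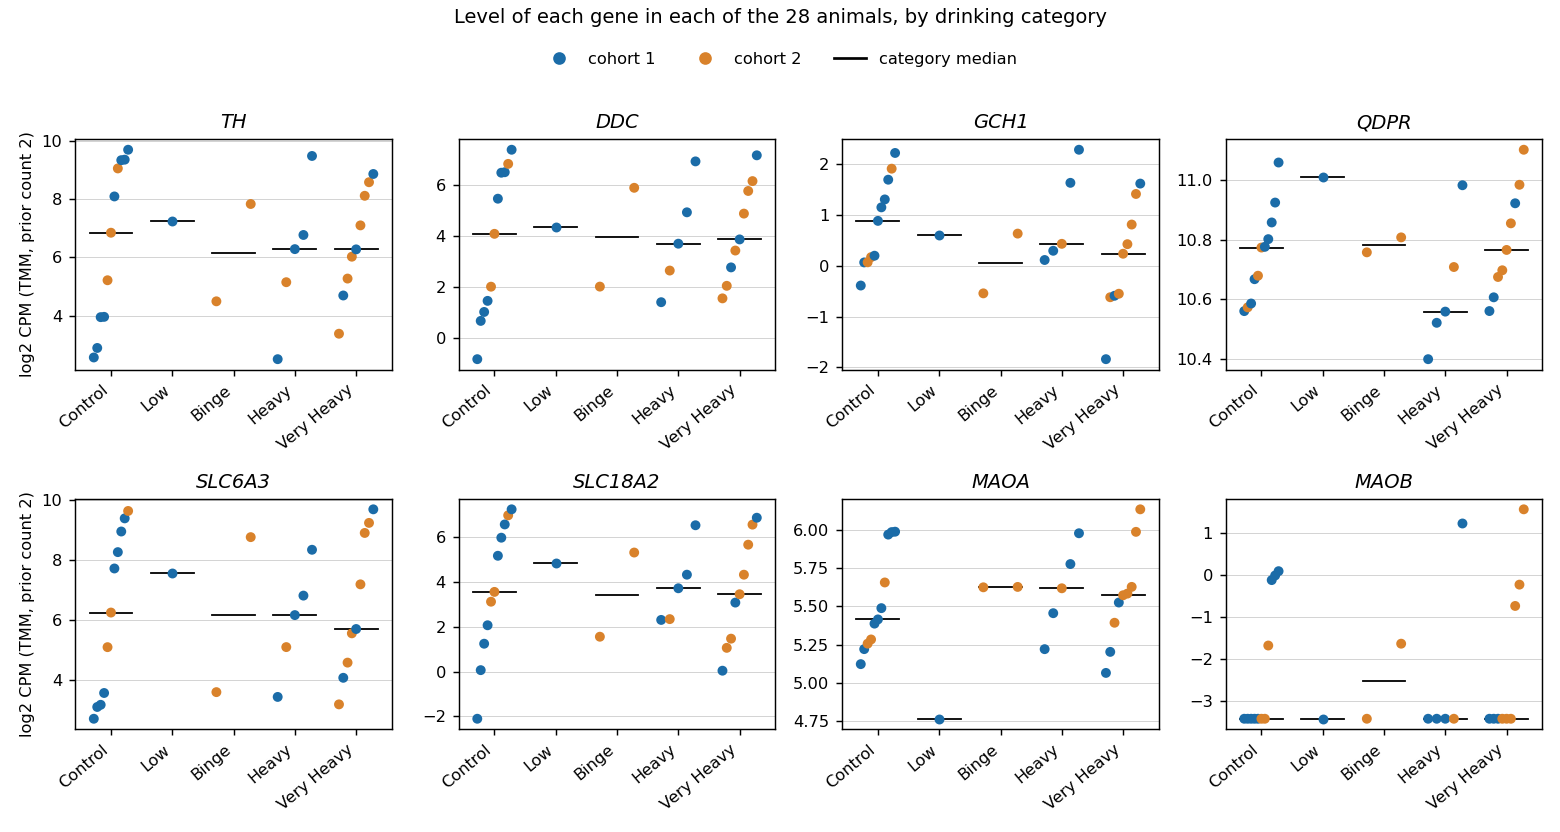
Each of the 8 panels plots the level of 1 gene (log2 CPM, y axis) in the 28 animals by drinking category (x axis), with points coloured by cohort and a line at the median of each category; the y axes differ between panels. For TH, DDC, SLC6A3 and SLC18A2, controls and Very Heavy drinkers overlap over a wide range, with the lowest DDC and SLC18A2 values in controls, whereas QDPR and MAOA are narrow, and the MAOB points at the bottom are the 19 animals at 0.

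SLC18A2 (ENSMMUT00000070556.2) codes for VMAT2, without which dopamine is not stored in vesicles, and is on chromosome 9 from 117717367 to 117756390 on the plus strand. The lowest control had 2 counts, 0.14 CPM, the control median was 11.7 and the highest control had 151.1 CPM. Drinkers ran from 0.935 to 116.5 CPM with a median of 13.1. Among drinkers the Heavy animals had 13.1, 92.3, 4.85, 19.9 and 4.98 CPM, the Binge animals 2.85 and 39.6 CPM and the Low animal 28.7 CPM, all inside the range of the 9 Very Heavy drinkers.

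SLC6A3 (ENSMMUT00000007320.4) codes for DAT, the protein that ends dopamine signalling by reuptake, and is on chromosome 6 from 1339149 to 1388879 on the minus strand. Controls had a lowest level of 6.35, a median of 75.8 and a highest level of 801.9 CPM, and drinkers 8.91, 71.4 and 833.0 CPM. The Heavy drinkers had 71.4, 325.7, 10.6, 112.3 and 33.9 CPM, below the highest values of both the controls and the Very Heavy drinkers, whose median was 51.7 CPM. The 2 Binge drinkers lay apart at 11.9 and 436.7 CPM, and the Low drinker had 189.8 CPM.

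The cofactor genes behaved differently from each other. GCH1 (ENSMMUT00000005800.4) codes for GTP cyclohydrolase 1, which starts tetrahydrobiopterin synthesis, and lies on chromosome 7 from 116954239 to 117007670 on the minus strand. It rested on 3 to 119 counts per animal, which limits its precision, and its control values of 0.671 to 4.56 CPM (median 1.75) lay among those of the drinkers, 0.187 to 4.77 CPM (median 1.25). The 5 Heavy drinkers had 3.003, 4.77, 1.13, 0.988 and 1.26 CPM of GCH1, among them the highest animal of the study, the Binge drinkers 0.593 and 1.46 CPM and the Low drinker 1.44 CPM. QDPR (ENSMMUT00000008047.4) codes for dihydropteridine reductase, which recycles the cofactor after each TH cycle, and lies on chromosome 5 from 16497799 to 16524380 on the minus strand. Its level stayed between 1351 and 2195 CPM over all animals, a 1.63-fold range, and 92.5% of the ranked transcripts had a larger SD than its 0.179. Controls had 1510, 1750 and 2131 CPM as their lowest, median and highest QDPR value, and drinkers 1351, 1731 and 2195 CPM. The 5 Heavy drinkers had 1509, 1351, 2022, 1470 and 1673 CPM, so that 4 of them lay below the control median. The Binge drinkers had 1731 and 1792 CPM of QDPR, and the Low drinker 2062 CPM.

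The 2 monoamine oxidase genes lie beside each other on the X chromosome, MAOA (ENSMMUT00000027384.4) from 43576151 to 43661380 on the plus strand and MAOB (ENSMMUT00000027387.4) from 43677807 to 43802080 on the minus strand. MAOA was lowest in the Low drinker at 27.1 CPM and highest in a Very Heavy drinker at 70.2 CPM. The control levels, 34.7 to 63.4 CPM with a median of 42.6, lay inside those of the drinkers, whose median was 47.9. Among the drinkers the 5 Heavy animals had 43.8, 63.0, 37.2, 54.7 and 49.0 CPM and both Binge animals 49.3 CPM. The listed MAOB transcript was at 0 in 19 of 28 animals and had at most 58 counts in the other 9. It was above 0 in 4 of 11 controls (at most 0.969 CPM) and in 5 of 17 drinkers, namely 1 Binge, 1 Heavy and 3 Very Heavy animals (at most 2.86 CPM). MAO-B is known as an enzyme of glia in primate brain. Counts on further MAOB transcripts are not in this value, which is therefore not read as the level of the gene, and no fold change is given for it.

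The first comparison asked whether drinkers differed from controls after abstinence. None of the 8 genes passed an adjusted p of 0.05 in edgeR's quasi-likelihood test, nor did any reach an unadjusted p of 0.05, against 0% and 4.57% of the 13769 transcripts tested. DESeq2's Wald test called 11 transcripts and limma-voom 0, and none of the 8 in either. The log2 fold change of TH in drinkers was -0.78 (SE 0.72), with a 95% interval from -2.25 to 0.70. SLC18A2 had -0.59 (SE 0.76, interval -2.13 to 0.96), DDC -0.47 (SE 0.74, interval -1.98 to 1.04) and SLC6A3 -0.26 (SE 0.78, interval -1.85 to 1.33). GCH1 had -0.40 (SE 0.40, interval -1.21 to 0.41). Their adjusted p-values were all 0.99987, and in linear terms the TH interval runs from 0.210 to 1.62 times the control level. Differences of a few fold in these 4 neuronal genes were thus not detectable with these animals. QDPR and MAOA were bounded far more closely: drinkers had 1.01 times the control level of QDPR, with an interval from 0.910 to 1.12, and 1.01 times that of MAOA, from 0.846 to 1.21. The median log2 fold change was -0.40 over the 7 genes other than MAOB, of which 2 were above 0, and 0.00147 over all transcripts tested. The estimates for the neuronal genes were not stable in direction. With the mean z-score of 12 such markers as a covariate, the log2 fold changes were 0.15 for TH, 0.53 for DDC, 0.64 for SLC6A3 and 0.36 for SLC18A2, none past adjustment. In limma-voom they were -0.18 for TH, 0.17 for DDC, 0.093 for SLC6A3 and -0.12 for SLC18A2, and SLC6A3 was 0.042 without Control 3 and 0.13 without Control 10. The summed markers had medians of 105.5 CPM in drinkers and 92.1 CPM in controls, but taken one by one 11 of the 13 had a log2 fold change below 0, with a median of -0.19 and a range from -0.71 to 0.17, none past adjustment or at an unadjusted p of 0.05 in edgeR. In bulk tissue, fewer dopamine neurons in a sample and less RNA per neuron cannot be told apart.

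Within cohort 1 the log2 fold change of TH between 8 drinkers and 8 controls was -0.57, and within cohort 2 between 9 drinkers and 3 controls it was -0.77. SLC18A2 had -0.29 and -0.94, and SLC6A3 -0.092 and -0.60, in the same order. The cohort 2 values rest on 3 controls, of which Control 10 was far above the others, at 529.6 CPM of TH against 114.7 and 37.0 CPM, and without it the interaction of drinking with cohort went from -0.19 to 1.37 for TH, from -0.64 to 1.61 for SLC18A2 and from -0.50 to 1.95 for SLC6A3 on the log2 scale. MAOA went opposite ways, at -0.19 in cohort 1 and 0.30 in cohort 2. In cohort 2 its controls had 38.9, 50.3 and 38.1 CPM and its 9 drinkers 41.9 to 70.2 CPM, whereas in cohort 1 controls had 34.7 to 63.4 and drinkers 27.1 to 63.0 CPM. The interaction of drinking with cohort was 0.48 on the log2 scale for MAOA (SE 0.26, interval -0.06 to 1.03, unadjusted p = 0.0791 and adjusted p = 0.599 in edgeR's quasi-likelihood test), so the difference between cohorts did not pass. None of the 8 genes passed for the interaction, adjusted or at an unadjusted p of 0.05, against 0.0145% and 9.62% of transcripts.

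Of the 8 genes, none passed when all categories were tested together, adjusted or at an unadjusted p of 0.05, where 1.15% and 10.1% of transcripts did. The lowest adjusted p among them was 0.788 in edgeR, for MAOA. Heavy drinkers against controls and Very Heavy drinkers against controls called 0% of transcripts each, and so did Very Heavy against Heavy drinkers. At an unadjusted p of 0.05 these 3 comparisons called 7.15%, 4.62% and 6.8% of transcripts and none of the 8 genes, and DESeq2, which called 48, 22 and 56 transcripts, none of the 8. SLC6A3 had a log2 fold change of -1.11 in Heavy drinkers (SE 1.20, interval -3.58 to 1.35) beside 0.04 in Very Heavy drinkers (SE 0.94, interval -1.90 to 1.98), both relative to controls. The direct contrast of Very Heavy with Heavy drinkers was 1.15 (SE 1.23, interval -1.38 to 3.68, adjusted p = 1 in edgeR), smaller than its error, and ran from 0.86 to 2.11 with each Heavy drinker left out in turn. TH had -0.59 (SE 1.10) in Heavy and -0.79 (SE 0.91) in Very Heavy drinkers. The Heavy estimates rested on single animals: without Heavy drinker 2, the highest of the 5 in all 4 neuronal genes, they were -2.31 for TH, -1.88 for DDC, -2.06 for SLC6A3 and -2.07 for SLC18A2, and without Heavy drinker 3, the lowest in each, -0.28, -0.18, -0.82 and -0.48, none past adjustment. For GCH1 the estimate was 0.14 (SE 0.55) in Heavy drinkers, but -0.34 without Heavy drinker 2, and -0.67 (SE 0.47) in Very Heavy drinkers. The summed dopamine neuron markers had medians of 92.1 CPM in controls, 93.3 in Heavy and 108.1 in Very Heavy drinkers, with ranges of 42.3 to 368.5 CPM in Heavy and 33.0 to 351.7 CPM in Very Heavy drinkers.

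The cohorts, which were separate groups of animals, gave no difference past the test in the 8 genes either. With drinking kept in the model, cohort 2 against cohort 1 called 0.0436% of transcripts and none of the 8, whose adjusted p-values lay between 0.823 and 0.998 in edgeR; at an unadjusted p of 0.05 it called 9.8% of transcripts and again none of the 8. DESeq2 and limma-voom called none of them. TH had medians of 93.1 CPM in cohort 1 and 89.7 CPM in cohort 2. Its log2 fold change was -0.55 (SE 0.75, interval -2.09 to 0.99), but 0.020 in limma-voom. The ranges were 5.58 to 826.0 CPM in cohort 1 and 10.3 to 529.6 CPM in cohort 2. DDC had -0.52 (SE 0.76), GCH1 -0.45 (SE 0.40) and SLC18A2 -0.27 (SE 0.78). SLC6A3 had 0.16 (SE 0.80), but -0.43 without Control 10, -0.017 in drinkers alone and -0.078 without the 5 animals lowest in dopamine neuron markers. The differences of QDPR and MAOA were 0.04 (SE 0.076) and 0.12 (SE 0.13).

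**Figure D2:**
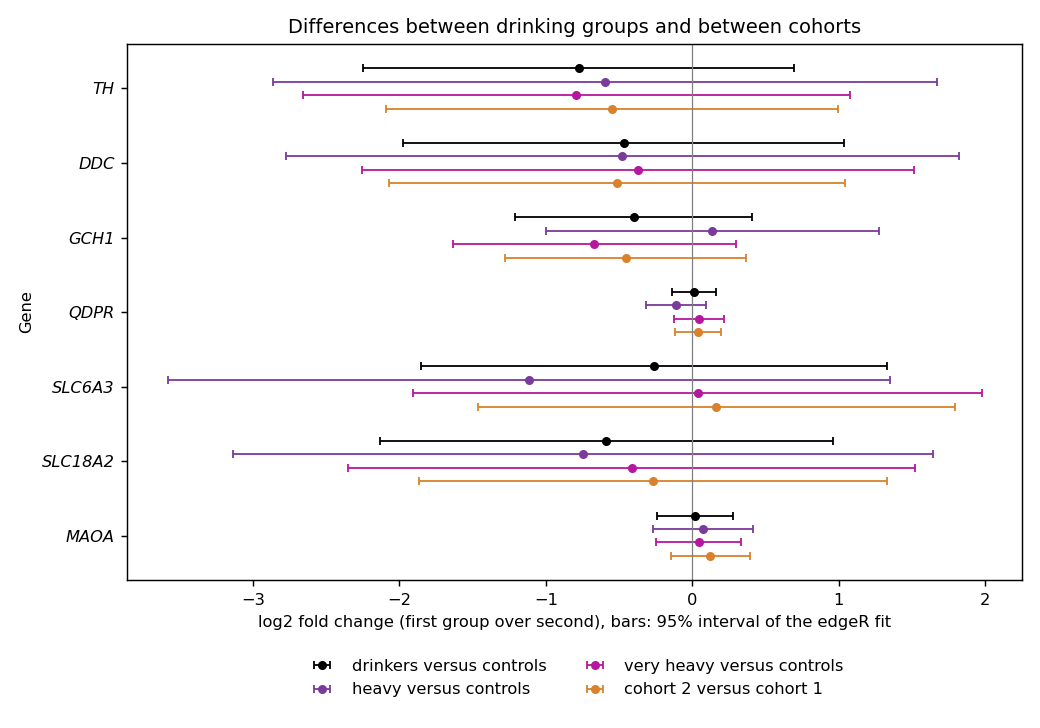
The log2 fold change (x axis) of 7 genes (y axis) is plotted for drinkers, Heavy and Very Heavy drinkers against controls and for cohort 2 against cohort 1, with bars for the 95% interval of the edgeR fit. Every interval contains 0; those of QDPR and MAOA lie between -0.32 and 0.42 on the log2 scale, and that of SLC6A3 in Heavy drinkers reaches down to -3.58.

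Although their levels did not separate the groups, the genes of the dopamine neuron rose and fell together from animal to animal. TH, DDC, SLC6A3 and SLC18A2 form 6 pairs, and Pearson's r of their log2 CPM over 28 animals ran from 0.928 for DDC with SLC18A2 to 0.969 for TH with DDC. Spearman's rho was between 0.940 and 0.970. Each pair had a two-sided permutation p of 1e-05 for r and for rho, the smallest that 100000 resamples can give, and an adjusted p of 3.5e-05 over 21 pairs. With the 2 animals farthest from the first gene's median left out, r lay between 0.920 and 0.978. Within cohort 1 it ran from 0.914 to 0.971 and within cohort 2 from 0.967 to 0.983. The same control had the highest TH, DDC and SLC18A2 levels, at 826.0, 168.4 and 151.1 CPM, and had 497.7 CPM of SLC6A3. At the other end, the control with 5.81 CPM of TH had 1.96 CPM of DDC, 8.82 CPM of SLC6A3 and 0.14 CPM of SLC18A2. Without the 5 animals lowest in the summed CPM of the other dopamine neuron markers, a choice made after values were seen, r was between 0.940 and 0.977. The pairs of MAOB were left out because its values fell into 2 separate clusters, 19 animals at 0 and 9 above.

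GCH1 followed these 4 genes more loosely. Its r was 0.596 with TH, 0.602 with DDC, 0.625 with SLC6A3 and 0.640 with SLC18A2 (rho 0.60 to 0.67), with adjusted permutation p-values from 0.00093 to 0.00179. These 4 pairs and the 6 above were the 10 of 21 that passed an adjusted p of 0.05. With the 2 animals farthest from the median left out, r of the GCH1 pairs was 0.567 to 0.686; it was 0.629 to 0.691 in cohort 1 and 0.490 to 0.590 in cohort 2, where the one with TH had an unadjusted permutation p of 0.107. QDPR, the other cofactor gene, had r between -0.326 and -0.240 with the 4 genes, and MAOA between 0.182 and 0.247, none with an adjusted p under 0.17. For QDPR with MAOA, r was -0.48 in cohort 1 and 0.54 in cohort 2 (-0.18 pooled, permutation p = 0.345), and this difference was not tested.

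**Figure D3:**
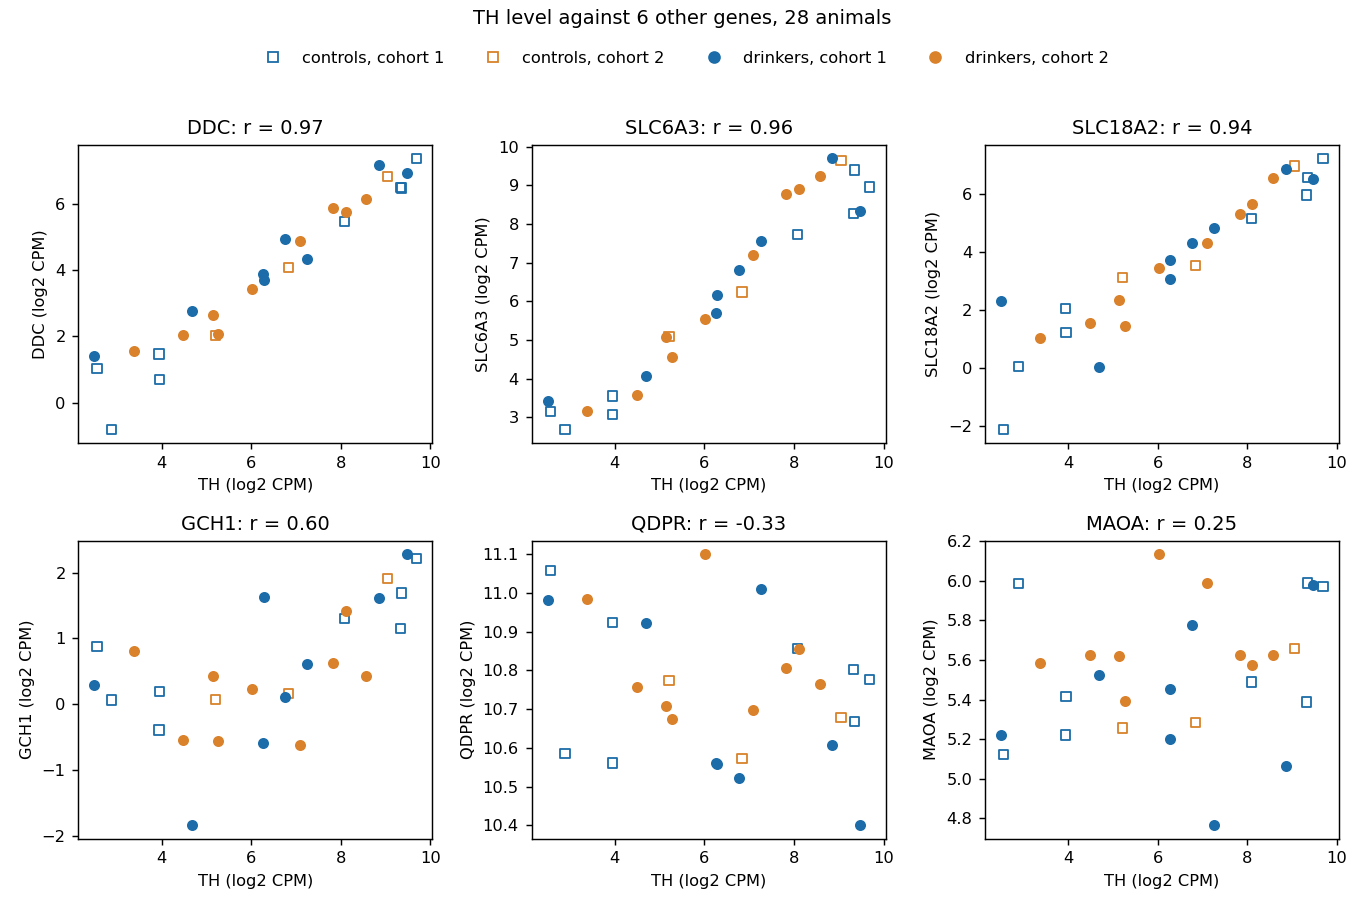
The log2 CPM of TH (x axis) is plotted against that of 6 other genes (y axes) in 28 animals, with open squares for controls, filled circles for drinkers and colour for cohort. DDC, SLC6A3 and SLC18A2 follow TH along a line over its whole range with both arms and cohorts mixed (r of 0.97, 0.96 and 0.94), GCH1 follows it loosely (0.60), and QDPR and MAOA scatter.

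No difference between the arms in this covariation passed the test of the difference itself. Among the 6 pairs of TH, DDC, SLC6A3 and SLC18A2, r was 0.902 to 0.966 in drinkers and 0.929 to 0.981 in controls. TH with SLC6A3 had r of 0.953 in drinkers and 0.981 in controls, a difference of -0.028 with a permutation p of 0.0595, the lowest of the 21 pairs, and an adjusted p of 0.655. GCH1 had lower r in drinkers with TH (0.507 against 0.788), DDC (0.528 against 0.838) and SLC6A3 (0.540 against 0.851), and the adjusted permutation p of each difference was 0.655, while with SLC18A2 it was 0.679 against 0.702 (adjusted permutation p = 0.979). MAOA had r between -0.009 and 0.108 with the 4 genes in drinkers and between 0.339 and 0.458 in controls, with no difference past the test. No pair reached an unadjusted p of 0.05 over all 28 animals, and 1 of 21 did within cohort 1, where none passed adjustment. TH and DDC had a larger SD of log2 CPM in controls than in drinkers, 2.80 against 1.94 and 2.95 against 1.87. So did SLC6A3 (2.755 against 2.179) and SLC18A2 (3.077 against 2.075), but GCH1 did not (0.875 against 1.02). The test did not scale the arms to equal spread.

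Since these 4 genes moved together, the ratios between them were compared as well, a choice made after values were seen. Over 12 comparisons of 6 ratios, between arms and between cohorts, none passed adjustment. For DDC to TH the mean log2 ratio of the 17 drinkers was -2.25 ± 0.504 (SD, n = 17), and that of the 11 controls was -2.70 ± 0.587 (SD, n = 11). The geometric mean of DDC per TH in drinkers was 1.36 times that in controls, with a permutation p of 0.0420 and an adjusted p of 0.504. The difference was 0.58 on the log2 scale in cohort 1 and 0.33 in cohort 2, neither past adjustment. Ratios ran from -3.21 to -1.08 in drinkers and from -3.70 to -1.52 in controls, so the arms overlapped. SLC6A3 per TH differed by 0.27 (adjusted permutation p = 0.833) and SLC18A2 per TH by 0.20 (adjusted permutation p = 0.833), which was -0.20 in cohort 2 and -0.093 without the 5 animals lowest in dopamine neuron markers. The other differences between drinkers and controls were -0.17 for SLC6A3 per DDC, -0.25 for SLC18A2 per DDC and -0.07 for SLC18A2 per SLC6A3, each with an adjusted permutation p of 0.833.

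The 4 covarying genes also followed other genes of the dopamine neuron, from a list chosen with earlier results of these data known. The mean z-score of 12 dopamine neuron markers, among them the transcription factors FOXA2, EN1, PITX3 and LMX1B, the receptor RET and the vesicle protein SLC10A4, had r of 0.921 with TH, 0.897 with SLC6A3, 0.871 with DDC and 0.855 with SLC18A2 (rho 0.936, 0.903, 0.896 and 0.874), each with an adjusted permutation p of 0.00014 over 56 pairs of gene and marker list. Within cohorts these r were 0.858 to 0.929 in cohort 1 and 0.854 to 0.914 in cohort 2, and 0.832 to 0.908 once the 2 animals farthest from the score's median were left out. GCH1 had r of 0.608 (rho 0.555, adjusted permutation p = 0.00616), which was 0.520 with an adjusted p of 0.0726 once those 2 animals were left out; it was 0.703 in cohort 1 and 0.424 in cohort 2. For MAOA, r was 0.281 (adjusted permutation p = 0.437).

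QDPR had r of -0.416 with these markers (rho -0.356, adjusted permutation p = 0.211), which did not pass. Its most positive r was with the markers of oligodendrocytes, the myelin-forming glia, such as MBP and MOBP. That r was 0.439 (rho 0.505, adjusted permutation p = 0.175) and did not pass either. In subsets of the same animals it was 0.458 in cohort 1, 0.640 in cohort 2 and 0.468 with the 2 outermost animals left out. It was 0.597 in drinkers and 0.272 in controls. Of 7 alternatives, 2 passed adjustment, values without TMM scaling (r of 0.584, adjusted permutation p = 0.0109) and values centred within cohort (0.513, adjusted permutation p = 0.0488), and the other 5 did not. Without TMM scaling r of QDPR with MAOA also moved, from -0.18 to 0.31. Across the lists for GABA, glutamate and all neurons, oligodendrocytes, astrocytes, microglia and endothelial cells, the 49 pairs with the 7 genes had r between -0.411 and 0.439 and none passed adjustment.

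**Figure D4:**
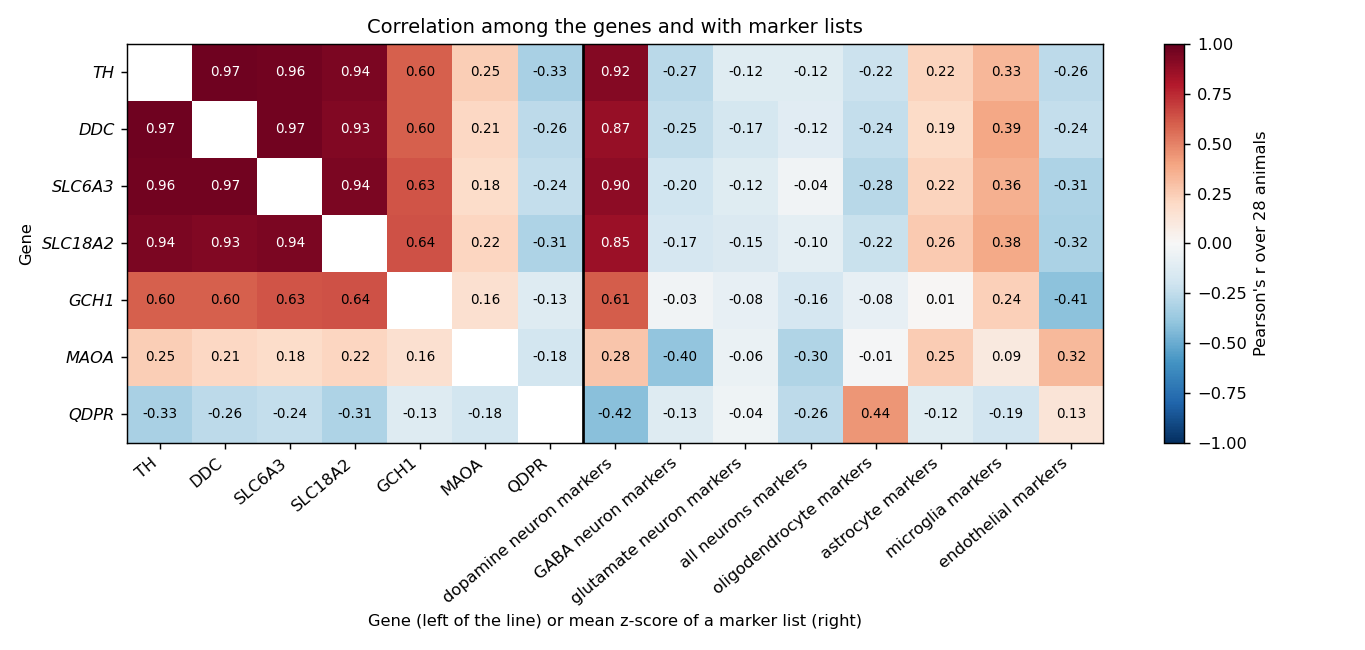
Pearson's r over 28 animals is printed and coloured for each pair of 7 genes (left of the line) and for each gene with the mean z-score of 8 marker lists (right); both axes name genes or lists. The block of TH, DDC, SLC6A3 and SLC18A2 and its column of dopamine neuron markers hold the values above 0.85, GCH1 sits near 0.6 in both, and QDPR has its highest r, 0.44, with oligodendrocyte markers.

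Among 10801 other well detected transcripts, those most like TH over the 28 animals were DDC, SLC6A3 and SLC18A2 themselves, followed by SLC10A4 (r of 0.920), CHRNB3 (0.917), EN1 (0.903), RET (0.898), NTSR1 (0.896), IGFBP4 (0.894) and PITX3 (0.877). For SLC6A3 the order was DDC, TH and SLC18A2, then SLC10A4 (0.926), RSPO2 (0.896), NTSR1 (0.890), EN1 (0.889), PITX3 (0.883), CHRNB3 (0.881) and LPO (0.879). SLC10A4 is a transporter-like protein of monoamine and cholinergic vesicles, CHRNB3 a nicotinic receptor subunit, NTSR1 a neurotensin receptor and RET the receptor for glial cell line-derived neurotrophic factor, while EN1 and PITX3 are transcription factors of midbrain dopamine neurons. These are the highest values out of all transcripts and are given as a ranking without a test. SLC10A4, EN1, RET and PITX3 are also in the dopamine neuron marker list.

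Because TH, DDC and SLC18A2 were among the genes that moved together, the sequences before their starts are shown side by side. Each runs from 250 bases before the annotated gene start to 30 bases after it, read 5′ to 3′ on the gene's strand from the Mmul_10 genome with RefSeq gene starts, and capitals mark matches to the motifs named below. TH is at chr14:2232188-2232467 (minus strand), DDC at chr3:64711386-64711665 (plus) and SLC18A2 at chr9:117717117-117717396 (plus).
TH: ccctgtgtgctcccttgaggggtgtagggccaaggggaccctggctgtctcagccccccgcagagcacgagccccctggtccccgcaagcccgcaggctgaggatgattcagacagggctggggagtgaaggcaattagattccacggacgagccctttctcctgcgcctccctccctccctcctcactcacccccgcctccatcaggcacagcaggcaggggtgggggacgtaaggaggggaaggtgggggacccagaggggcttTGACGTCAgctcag
DDC: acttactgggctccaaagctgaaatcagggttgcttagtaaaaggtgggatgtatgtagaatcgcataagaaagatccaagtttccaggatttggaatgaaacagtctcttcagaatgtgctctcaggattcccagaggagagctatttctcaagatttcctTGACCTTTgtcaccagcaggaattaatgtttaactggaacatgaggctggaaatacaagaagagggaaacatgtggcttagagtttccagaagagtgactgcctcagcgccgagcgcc
SLC18A2: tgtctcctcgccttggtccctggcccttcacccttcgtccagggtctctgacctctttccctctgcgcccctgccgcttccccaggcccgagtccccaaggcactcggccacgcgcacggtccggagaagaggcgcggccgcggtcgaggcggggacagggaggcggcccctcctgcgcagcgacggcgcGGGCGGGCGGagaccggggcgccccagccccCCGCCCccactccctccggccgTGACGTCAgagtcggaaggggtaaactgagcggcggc
The cyclic AMP response element TGACGTCA, which reads the same on both strands, was found in TH at bases 17 to 24 after the start and in SLC18A2 across the start, from base 7 before it to the first base, and in MAOA from 245 to 238 bases before. It is present in 2.01% of the 21101 promoters of protein-coding genes when searched from 250 bases before to 50 after the start. The half-site AAAGGTCA of the NR4A receptors, the family of the dopamine neuron factor NURR1, was found on the opposite strand in DDC from 88 to 81 bases before the start and is in 1.08% of promoters. The GC box GGGCGG was found 4 times in SLC18A2 on either strand, with a pair of overlapping matches, and 9 times in MAOB, and is in 48.1% of promoters; 1 of the SLC18A2 matches lies beyond the printed end. The PITX site TAATCC, in 10.4% of promoters, was found in GCH1 and in none of the 3 promoters shown, nor was the TATA box TATAAA, which is in 11.2%. No motif was shared by these 3 promoters. A match is a run of letters, and binding was not measured.

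Around the 8 genes, 19 further genes of dopamine and cofactor metabolism, uptake and related transport were looked up, of which 17 were listed and 15 tested. None passed adjustment in edgeR in any comparison. Between drinkers and controls no gene of the list had an unadjusted p under 0.05, 11 of the 15 had a positive log2 fold change, and their median was 0.11 beside 0.00147 over all transcripts tested. SLC3A2, the heavy chain of the amino acid transporter that carries tyrosine and L-DOPA into cells, stood lowest in p. Its level was 65.3 to 110.3 CPM in the 5 Heavy drinkers (median 78.2), 34.0 to 64.2 CPM in the 9 Very Heavy drinkers (median 56.9) and 42.1 to 72.5 CPM in the controls (median 64.9). Its log2 fold change was -0.58 for Very Heavy against Heavy drinkers (SE 0.13, interval -0.85 to -0.32). The adjusted p was 0.521 in edgeR, which called 0 transcripts in this contrast, and 0.00177 in DESeq2, which called 56. Of the 5 Heavy drinkers 4 were from cohort 1, and of the 9 Very Heavy drinkers 6 were from cohort 2. Heavy drinkers against controls had 0.40 (SE 0.12, adjusted p = 0.554 in edgeR). Over all categories its adjusted p was 0.0571 in edgeR, 0.0469 with DESeq2's size factors and 0.0477 with cohort in the model; without the Heavy drinkers 1 to 5 in turn it ran from 0.0333 to 0.207.

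Between cohorts, SPR was among the genes of the list lower in cohort 2 at an unadjusted p under 0.05, as were 4.27% of all transcripts tested. SPR, sepiapterin reductase of tetrahydrobiopterin synthesis, had a median of 19.6 CPM (15.3 to 31.6) in cohort 1 and 16.4 CPM (12.6 to 23.2) in cohort 2, a log2 fold change of -0.35 (SE 0.12, adjusted p = 0.222 in edgeR). SLC18A1, the vesicular monoamine transporter of neuroendocrine cells, was listed at 0 in 8 of 16 animals of cohort 1 and 10 of 12 of cohort 2, with at most 32 counts.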

How the data were processed

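RNA had been extracted from VTA tissue of 28 animals and, per the labels, made into libraries with the Nugen Universal Plus mRNA kit. The authors trimmed reads with Trim Galore 0.6.7, quantified them with Salmon 1.9.0 against Mmul_10 and deposited estimated counts, not normalized, 1 column per animal. They used DESeq2 1.36.0 to normalize counts and the Biojupies package for pairwise comparisons. The gene annotation used for quantification is not given beyond the Ensembl transcript identifiers. One entry without a symbol, with 1.16e-05 percent of counts, was left out. Categories came from the labels and cohorts from the study's source data. The 8 genes, the pathway list and the marker lists were chosen with earlier results of these data known.

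Counts were rounded, and a filter of 5 or more counts in 3 or more animals left 13769 transcripts. edgeR 4.0.16 (R 4.3.3) fitted quasi-likelihood models with TMM normalization, and Benjamini-Hochberg adjustment ran over all 13769 with a threshold of 0.05. Fits by drinking and by category had no covariate, and the cohort fit kept drinking in the model. The standard error is the log2 fold change divided by the square root of F. The test was tried on simulated counts first. Correlations used log2 CPM with a prior count of 2 and two-sided permutation p-values with 100000 resamples (Python 3.11.15, numpy 2.4.6, scipy 1.17.1). A gene had separate clusters, and no pooled r, where the largest gap was over 30% of its range with at least 4 animals on each side. A marker entered a list's score if it reached 10 counts in 14 or more animals, so the serotonin list has no score. Calls are reported over all 8 genes in each comparison, while fold changes are printed for some of them only. Pathway genes at an unadjusted p under 0.05 are named, as are the 10 transcripts most correlated with TH and with SLC6A3.

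Alternatives were DESeq2 1.42.0, limma 3.58.1 (voom), other size factors, filters and covariates, no mitochondrial transcripts, single cohorts, other scales and leaving out animals. Added after seeing the data were the ratios and the fits without the 5 animals lowest in dopamine neuron markers. Those animals were taken by the summed CPM of the 12 markers in the score, not by the mean z-score. Replicates are animals. Intake and voltammetry values were not used. Some items of the lists and 1 promoter are not reported here.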

Additional observations from a re-analysis of the deposited data

Results flagged for a closer look

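The MAOB transcript stood out in 1 animal: among the 5 Heavy drinkers, the second had 2.24 CPM while the other 4 were at 0, so that its gap to the nearest animal was the whole range of the group. The same animal, at 2.24 CPM, was the only one above 0 among the 8 drinkers of cohort 1. It also had the highest TH, DDC, GCH1, SLC6A3 and SLC18A2 levels of the Heavy drinkers. In all, 40 groups of 4 to 10 animals were screened for such gaps over the 8 genes, a screen that by its construction picks about 1 in 20 groups by chance where values are normally spread. MAOB was at 0 in 19 of 28 animals, and any group with exactly 1 animal above 0 meets it, so that rate does not apply to this transcript.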

How the results depend on the processing

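None of the 8 genes passed adjustment under any alternative in which it was tested; the filter of 10 counts in every animal kept only 4 of them. The number of transcripts called moved with the tool: DESeq2's Wald test called 11 for drinkers against controls, 121 for the cohorts, 22 for Very Heavy and 48 for Heavy drinkers against controls, 56 for Very Heavy against Heavy drinkers and 129 for the interaction, where edgeR called 0, 6, 0, 0, 0 and 2. For the cohorts, limma-voom called 23, DESeq2 size factors gave 3, the dopamine neuron marker score as a covariate 10 and drinkers alone 105. Cohort 1 alone gave 5 for drinkers against controls. The cause was not tested.

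Directions turned for these uncalled log2 fold changes. Between drinkers and controls, limma-voom gave 0.17 for DDC and 0.093 for SLC6A3. With the marker score as a covariate TH was 0.15, DDC 0.53, SLC6A3 0.64, SLC18A2 0.36 and QDPR -0.0061. MAOA was -0.023 with cohort as a covariate, QDPR -0.072 and MAOA -0.19 in cohort 1, and QDPR -0.019 without the 5 animals lowest in dopamine neuron markers. Between cohorts, TH was 0.020 in limma-voom, and SLC6A3 -0.017 in drinkers and -0.078 without those 5 animals. With cohort as a covariate, MAOA was -0.0031 for Very Heavy drinkers against controls and TH 0.19 for Very Heavy against Heavy drinkers.

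Leaving out each of the 3 controls of cohort 2 in turn gave 0 to 6 calls for the cohorts and 0 to 4 for the interaction. With each of 28 animals left out in turn for drinkers against controls, the ranges that crossed 0 were SLC6A3 -0.58 to 0.13, QDPR -0.0095 to 0.050 and MAOA -0.026 to 0.072, and for the cohorts SLC6A3 -0.43 to 0.30. Without crossing 0, drinkers against controls ran from -1.10 (without Heavy drinker 2) to -0.47 (without Control 5) for TH, -0.78 to -0.065 for DDC, -0.87 to -0.20 for SLC18A2 (both without Very Heavy drinker 3 and Control 5) and -0.60 to -0.21 for GCH1 (without Heavy drinker 2 and Control 5), and the cohorts, lowest without Control 10, from -0.94 to -0.42 for TH, -1.06 to -0.38 for DDC, -0.86 to -0.15 for SLC18A2 and -0.74 to -0.39 for GCH1. SLC6A3 turned without Control 3 or Control 10 for drinkers against controls and without Control 10 for the cohorts. The interaction turned without Control 10, with ranges of -0.70 to 1.37 for TH, -1.11 to 1.52 for DDC, -0.79 to 0.43 for GCH1, -1.03 to 1.95 for SLC6A3 and -1.14 to 1.61 for SLC18A2. With each of the 5 Heavy drinkers left out in turn, for Heavy drinkers against controls TH ran from -2.31 to -0.28, DDC from -1.88 to -0.18, SLC6A3 from -2.06 to -0.82 and SLC18A2 from -2.07 to -0.46, GCH1 ran from -0.34 to 0.33 and MAOA from -0.021 to 0.16, both below 0 without Heavy drinker 2, and for Very Heavy against Heavy drinkers TH from -0.51 to 1.53 (above 0 without the same animal), DDC from -0.19 to 1.52, SLC6A3 from 0.86 to 2.11 and MAOA from -0.12 to 0.064.

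The 10 of 21 pairs past adjustment stayed 10 in number under each alternative. GCH1 with QDPR had r of 0.12 without TMM, 0.036 as rho and 0.12 without the 2 outermost animals, and QDPR with MAOA 0.31 without TMM. SLC18A2 over TH was -0.093 between arms without the 5 animals, -0.20 in cohort 2 and -0.14 between cohorts in drinkers, and SLC18A2 over SLC6A3 was 0.069 between arms in cohort 1. No paired analysis was possible because the labels do not say which control was yoked to which drinker, and a replicate number here only names an animal.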
